A study of Rattus norvegicus with 3 samples.

Results

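Ccl22, Ccl17 and Ccr4 encode a chemokine receptor and its ligands: CCL22 (also called MDC) and CCL17 (also called TARC) bind CCR4. The 3 genes were taken by symbol from 34034 measured genes in both droplet single-cell RNA libraries of a study of thymi from Lewis rats, an inbred strain, aged 8 weeks. The stromal library came from tissue digested with DNase I plus Liberase TH and sorted for cells lacking CD45, the general leukocyte marker. The thymocyte library came from tissue digested with DNase I plus collagenase D. Each library was 1 sample, and the labels do not say how many animals it came from. A Stereo-seq section of the same study was not used here. With 1 library of each kind no test across samples was possible, so every interval below is a 95% interval for counting error in that library alone.

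CCR4 is a G-protein-coupled receptor that thymocytes acquire after positive selection, when they move from the thymic cortex to the medulla. Its ligands are made by medullary antigen-presenting cells, and in the periphery the same receptor is known from regulatory and type 2 helper T cells. Medullary thymic epithelial cells (mTEC) display tissue antigens under the control of Aire. Newly selected thymocytes meet self-antigen there.

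The stromal library had 13226 annotated cells in 29 of the authors' labels, 24 of them with at least 20 cells, and the thymocyte library had 8546 in 25 labels, 21 of them with at least 20 cells. The median depth was 9087.5 unique molecular identifiers (UMIs, counted RNA molecules) per stromal cell and 3994 per cell of the thymocyte library. Levels are given as CPM, counts per 1000000 UMIs summed over the cells of a label. The libraries shared 28 annotated barcodes, which held none of the ligand UMIs and 2 of the 415 Ccr4 UMIs of the thymocyte library. In the stromal library all 3 genes had a highest label at least 3-fold above the next, beside 9.44% of 13149 genes with at least 20 UMIs in their highest label. In the thymocyte library both ligands did and Ccr4 did not, beside 11.9% of 10010 genes.

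The promoters of the ligands are shown because both ligands had their highest level in the same label of each library and lie near each other on rat chromosome 19, with Cx3cl1 among the genes between them. The 250 bases before the annotated start come from the RefSeq promoter table (build GRCr8), chr19:10270360-10270609 for Ccl22 and chr19:10209896-10210145 for Ccl17, both on the minus strand and written 5′ to 3′. The Ccl17 window belongs to 1 annotated start inside the gene's record. The table matched 2 of the 3 genes, and Ccr4 is named only. Capitals mark a match to any of 3 motifs searched on both strands: 2 NF-kB-like motifs, GGG and TTTCC or GGG and TTCCC parted by 2 free bases, and a STAT6-like motif, TTC and GAA parted by 4 free bases.
Ccl22: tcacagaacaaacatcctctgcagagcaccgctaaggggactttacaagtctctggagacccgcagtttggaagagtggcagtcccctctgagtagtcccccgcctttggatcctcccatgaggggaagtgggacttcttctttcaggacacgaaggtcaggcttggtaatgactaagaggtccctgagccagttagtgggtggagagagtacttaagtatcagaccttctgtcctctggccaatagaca
Ccl17: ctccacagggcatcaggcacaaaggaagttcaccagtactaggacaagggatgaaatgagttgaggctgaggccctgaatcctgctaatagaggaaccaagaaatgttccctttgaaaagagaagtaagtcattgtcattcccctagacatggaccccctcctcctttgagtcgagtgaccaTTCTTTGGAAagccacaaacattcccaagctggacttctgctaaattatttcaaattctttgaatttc
The Ccl17 window held 1 match, TTCTTTGGAA, to the STAT6-like motif, and the Ccl22 window held none of the 3. Of 33469 promoters in the table, 6.25% held the STAT6-like motif in the same 250-base window, 1.30% held the NF-kB-like motif ending in TTTCC and 1.91% the one ending in TTCCC. These are letter matches only, and no binding was measured.

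Ccl22 was concentrated in cells labelled mTEC2, a label of medullary epithelium with Aire. These 61 cells held 675 of the library's 976 annotated Ccl22 UMIs (69.2%), a level of 771 CPM (714 to 832). The label was 42.7 times (29.8 to 61.2) above the next label of at least 20 cells, Thymocyte, at 18.1 CPM (12.3 to 25.6). Of all genes tested, 2.61% had mTEC2 as a highest label with at least this 3-fold margin. A Ccl22 UMI was found in 25 of 61 mTEC2 cells, 41.0% (28.6 to 54.3), at a median depth of 13378. The share was 0.90% (0.71 to 1.13) in 8216 cells of the labels TMC1 to TMC4 and capFb, among which all 5 fibroblast markers had their highest level, at a median depth of 9006.5. With each cell thinned to 1000 UMIs the shares were 21.7% of 60 mTEC2 cells and 0.15% of 8203 cells of those labels. With the authors' first clusters alone, most mTEC2 cells fell in TEC-d and a few in TEC-a, and TEC-d was only 1.70 times TEC-a. These clusters are wider than mTEC2, with 618 Ccl22 UMIs in 374 TEC-d cells and 92 in 188 TEC-a cells. Of those 92 UMIs, 69 lay in 1 mTEC2-labelled cell.

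The mTEC2 label matched its markers in most cells. Cd74, the class II invariant chain, had a UMI in 60 of 61 cells, Epcam, an epithelial surface protein, in 50, Aire in 40, Fezf2, a second regulator of tissue antigens, in 38, and Cd80, a co-stimulatory ligand, in 35. No other epithelial label of at least 20 cells came near its Ccl22 level. The mTEC1 label had 2.80 CPM (1.66 to 4.42), with 18 UMIs in 17 of 482 cells. Proliferating mTEC (mTEC-prol) had 3.66 CPM from 5 UMIs, cTEC, the cortical epithelium, had 1.00 CPM from 5 UMIs, and tuft-like mimetic cells had 14.2 CPM (3.88 to 36.4) from only 4 UMIs in 25 cells.

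**Figure D1:**
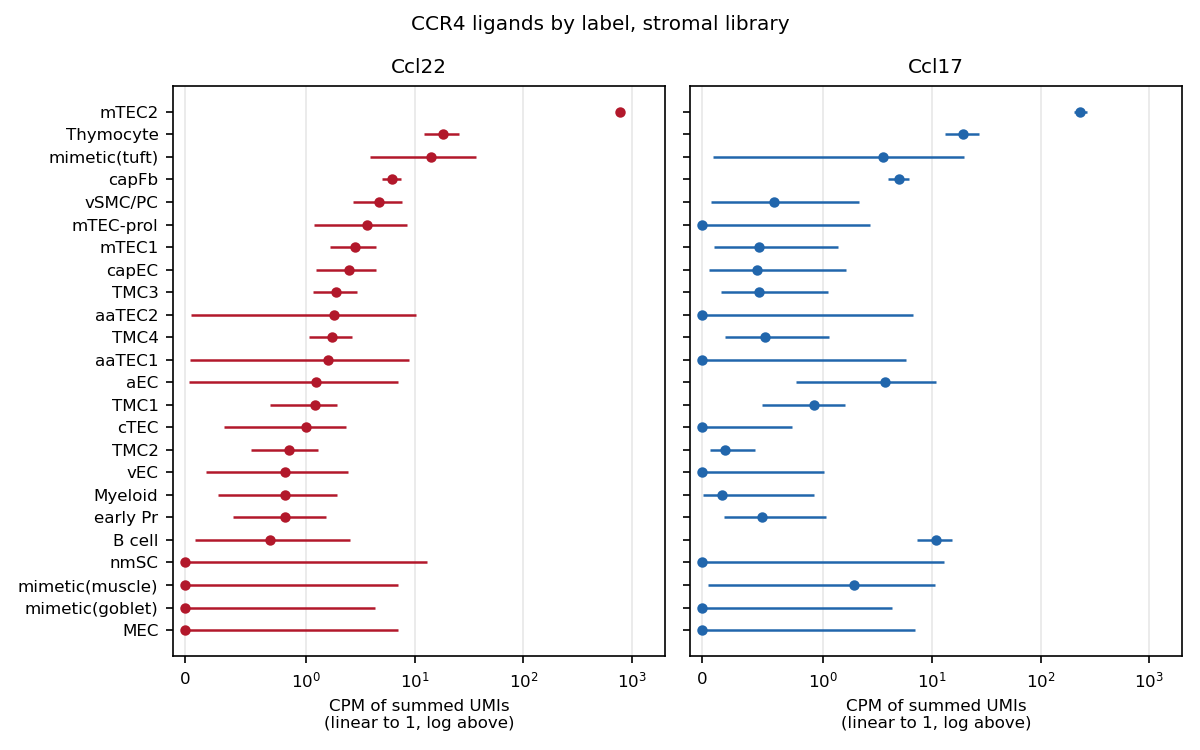
Levels of Ccl22 and Ccl17 (CPM of summed UMIs, linear to 1 and logarithmic above) in the 24 stromal-library labels of at least 20 cells; points are levels and lines 95% Poisson intervals. mTEC2 stands at 771 CPM for Ccl22 and 233 CPM for Ccl17, and the B cell label is high for Ccl17 only.

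Outside mTEC2, high label levels rested on single cells. In the Thymocyte label 28 of 31 Ccl22 UMIs lay in 1 of 411 cells, and without it the level was 1.76 CPM (0.36 to 5.14). In capFb 89 of 100 UMIs lay in 1 of 1358 cells, and without it the level was 0.68 CPM in place of 6.19. In TMC3 13 of 20 UMIs lay in 1 cell. In TMC2, by contrast, 23 UMIs lay in 23 different cells of 3080. Without the highest cell of each ligand, TMC1 to TMC4 and capFb together had 1.15 CPM of Ccl22.

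Within mTEC2 the ligand was also uneven. The 14 cells with at least 5 Ccl22 UMIs held 660 of the 675 UMIs (97.8%), from 5 to 180 per cell, while 11 cells had 1 to 4 and 36 had none. The 6 highest cells had 180, 81, 79, 71, 69 and 53 UMIs. The 14 cells had a median depth of 8047.5 UMIs. Leaving out the highest cell gave 589 CPM (538 to 643).

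The mTEC2 cells with at least 5 Ccl22 UMIs had a lower summed Aire level than the other 47. Aire was 219 CPM in the 14 cells and 532 CPM in the 47, a ratio of 2.43 (1.75 to 3.38) in favour of the latter. Of the 39 Aire UMIs in the 14 cells, 28 came from 1 cell. Without it the level was 73.4 CPM and the ratio 7.25 (3.98 to 13.2). Only the 14 were cut in this way: the 47 kept their highest cell, with 43 of their 371 Aire UMIs. In UMIs, 13 of the 14 cells had at most 2 Aire UMIs and 6 had none, beside 23 and 15 of the 47, whose median depth was higher at 15094. Among cells with an Epcam UMI the levels were 253 CPM in 11 cells and 549 CPM in 39 cells. The share of cells with an Aire UMI was 57.1% (28.9 to 82.3) of the 14 and 68.1% (52.9 to 80.9) of the 47, and these intervals overlapped. Among cells with an Epcam UMI the shares were alike, at 72.7% of 11 and 71.8% of 39. The summed level thus differed. The intervals of the shares are too wide, at unequal depths, to tell whether the share of cells with Aire differed.

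**Figure D2:**
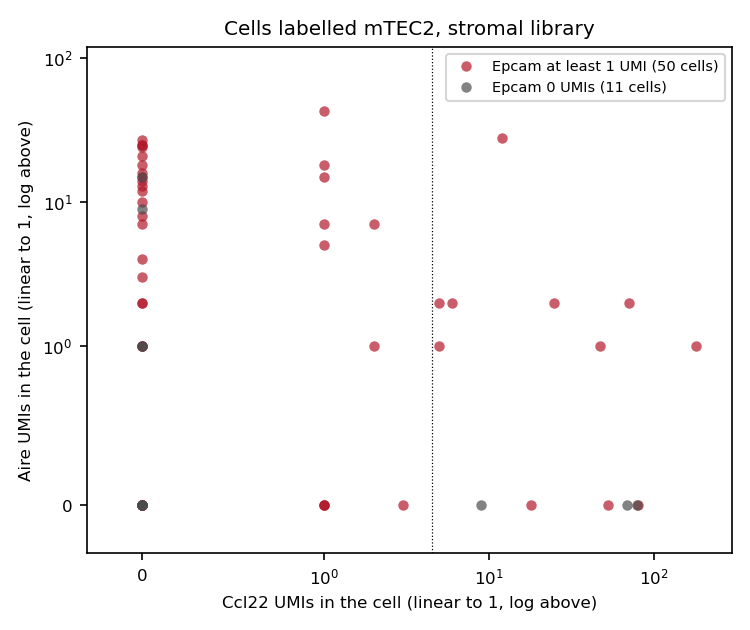
Ccl22 and Aire UMIs in each of the 61 mTEC2-labelled cells (both axes linear to 1 and logarithmic above; overlapping points darken; the dotted line separates cells with 5 or more Ccl22 UMIs). Right of the line, 13 of 14 cells have at most 2 Aire UMIs; grey points are the 11 cells without an Epcam UMI.

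Other genes of the fixed lists split both ways between these groups. Tnfrsf11a, which encodes the receptor RANK, was 129 CPM in the 14 cells and 314 in the 47, and Krt5, a basal keratin, was 471 and 937. Fezf2 was 208 and 238 CPM, a ratio whose interval held 1. Higher in the 14 cells were Cd74 (14213 against 8570 CPM), Cd80 (202 against 96.1 CPM) and Traf1, a signalling adaptor induced by NF-kB (353 against 115 CPM). Ccl20, the CCR6 ligand, was 460 against 91.8 CPM, a ratio of 5.01 (3.61 to 6.95), but single cells set both levels. In the 14 cells 75 of 82 Ccl20 UMIs lay in 1 cell, and in the 47 cells 59 of 64 did.

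Some genes of the list for activated dendritic cells were among those higher in the 14 cells. In the stromal library mTEC2 was itself the highest label for 4 of the 7 list genes that reached 20 UMIs. Of the 8 genes in that list, Cd83 was 1105 against 330 CPM, Fscn1, an actin-bundling protein, 320 against 116, Cd40 331 against 152 and Socs2 219 against 51.6. The highest of the 14 cells held 50 of 197 Cd83, 18 of 57 Fscn1, 17 of 59 Cd40 and 16 of 39 Socs2 UMIs. Zbtb46 and Irf8, transcription factors of dendritic cells outside that list, were 67.3 against 25.8 CPM (a ratio of 2.61, 1.26 to 5.41) and 72.9 against 27.3 CPM (2.68, 1.32 to 5.42). Within the list Relb was lower, at 84.2 against 162 CPM, the intervals for Ccr7 and Marcksl1 held 1, and Lamp3 was at 0. The summed list ran from 116 to 4982 CPM per cell in the 14 and from 0 to 3591 in the 47. Flt3, Itgax, Xcr1 and Clec9a, other dendritic genes, were at 0 in both groups, and Ptprc (CD45) had 5 UMIs in the 14 cells. The part of dendritic cells in the mTEC2 level was not tested.

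Ccl17 also had its highest stromal level in mTEC2, but 1 cell decided the size. The label held 204 Ccl17 UMIs in 12 of 61 cells, 233 CPM (202 to 267), against 19.2 CPM (13.2 to 27.0) in the Thymocyte label, a ratio of 12.1 (8.39 to 17.5). A single cell held 155 of the 204 UMIs (76.0%), and without it mTEC2 stood at 56.7 CPM (42.0 to 75). All 33 UMIs of the Thymocyte label lay in 1 cell. Without the highest cell in both labels, the next label was B cell at 10.9 CPM, and mTEC2 was 5.23 times (3.33 to 8.20) above it. In capFb 79 of 80 UMIs lay in 1 cell.

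The ligands shared cells only in part. In mTEC2, 8 cells had both ligands, 17 only Ccl22, 4 only Ccl17 and 32 neither. Of the 14 cells with at least 5 Ccl22 UMIs, 10 had no Ccl17 UMI. Across the whole stromal library 21 annotated cells had at least 5 UMIs of a ligand: 16 were high for Ccl22 only, 1 for Ccl17 only and 4 for both. High Ccl22 thus mostly came without high Ccl17 in this library.

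**Figure D3:**
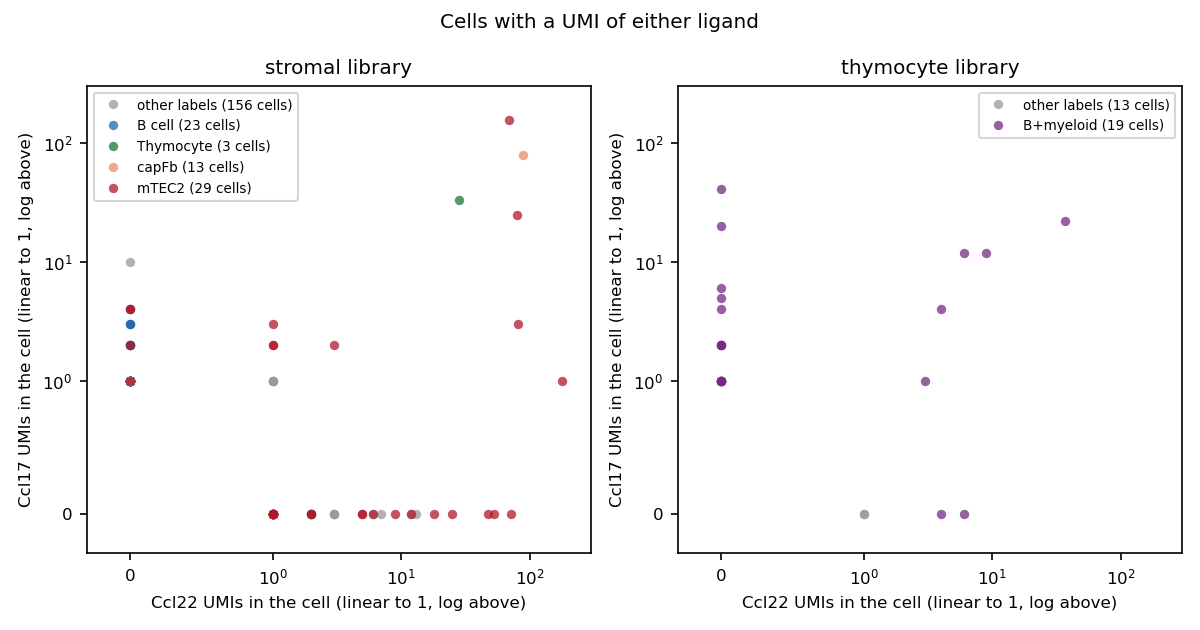
Ccl22 and Ccl17 UMIs in every annotated cell with a UMI of either ligand, by label, in the stromal library (left) and thymocyte library (right); both axes are linear to 1 and logarithmic above, and many points overlap at low counts. The 4 stromal cells high for both carry the labels mTEC2 (2 cells), capFb and Thymocyte, and the B cell points lie on the axes.

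The 4 cells high for both ligands carried 3 different labels. One mTEC2-labelled cell had 69 Ccl22 and 155 Ccl17 UMIs, another had 79 and 25, the capFb-labelled cell had 89 and 79, and the Thymocyte-labelled cell had 28 and 33. None had an Epcam or an Aire UMI, and the Thymocyte-labelled cell had no Cd3e UMI. Of the 8 activated dendritic genes 6 were detected in them, Lamp3 and Marcksl1 being at 0, and the summed list ran from 148 to 7910 CPM per cell. Fscn1 had 7, 0, 17 and 13 UMIs in the same order, and Cd83 had 20, 0, 21 and 23. Zbtb46 had 0, 0, 3 and 2 UMIs and Ptprc 2, 1, 5 and 2. The class II genes, which dendritic cells also express, were scarce in 3 of the 4 cells. Cd74 had 3, 49, 3 and 3 UMIs and RT1-Da 0, 54, 1 and 0. Flt3, Xcr1 and all 10 macrophage genes were at 0. The capFb-labelled cell also had 187 Col1a1 UMIs and 28876 UMIs in all. Without these 4 cells mTEC2 had 615 CPM of Ccl22 and 28.0 CPM of Ccl17, so the Ccl17 level in mTEC2 was mostly theirs and the Ccl22 level was not.

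The stromal B cell label had Ccl17 without Ccl22. It held 31 Ccl17 UMIs in 21 of 179 cells, 11.7% (7.41 to 17.4), with at most 4 in a cell, a level of 10.9 CPM (7.37 to 15.4). The share was 0.24% in the labels TMC1 to TMC4 and capFb, at a median depth of 9006.5 against 14761 in B cells. Only 2 Ccl22 UMIs were found in the label, none of them in a cell with Ccl17. After thinning to 1000 UMIs 0.56% of B cells had a Ccl17 UMI, which is near the level of 1 UMI and carries no comparison.

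Inside that label Ccl17 lay in cells with B-lineage genes. The label did not match its markers throughout: Cd79a, part of the B-cell receptor, had a UMI in 101 of 179 cells. All 21 Ccl17-positive cells were among those 101 (20.8%, 13.4 to 30.0), and none of the 78 cells without Cd79a had Ccl17, which by the limit of 3 counts allows a share of up to 3.85%, although these were deeper, with a median of 17064 against 13309 UMIs. The Ccl17-positive cells had 954 CPM of Igll1, part of the surrogate light chain of early B cells, against 633 CPM in the 80 cells with Cd79a but no Ccl17, a ratio of 1.51 (1.33 to 1.71), and 282 CPM in all 158 cells without Ccl17. They had 7.43 CPM of RT1-Da, a class II gene, from 3 UMIs, against 181 CPM in the 80 cells. No Ms4a1 (CD20) UMI was found in them, beside 9 in the 80 cells (8.25 CPM), too few for a comparison. Mki67, a proliferation gene, was 803 and 817 CPM. Median depths were 14798 in the 21 cells and 11838 in the 80. Igll1 and Mki67 were chosen after their values were seen.

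In the thymocyte library both ligands belonged to the label B+myeloid, which mixes B and myeloid cells. Its 170 cells held 69 of 71 Ccl22 UMIs, 28.9 CPM (22.5 to 36.5), in 7 cells, and 138 of 149 Ccl17 UMIs, 57.7 CPM (48.5 to 68.2), in 17 cells. The label was the highest with at least a 3-fold margin for 10.5% of the genes tested. No other label of at least 20 cells had more than 1 Ccl22 UMI or 4 Ccl17 UMIs. The ratio to the next label was 9.46 (2.98 to 30.1) for Ccl22 and 23.1 (7.36 to 72.5) for Ccl17, with the next label, at 1 UMI, taken at 3 UMIs. One cell held 37 of the 69 Ccl22 UMIs, and without it B+myeloid had 13.5 CPM (9.20 to 19.0) of Ccl22 and a ratio of 4.41.

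Marker genes divided the ligands within B+myeloid. The 4 cells with at least 5 UMIs of Fscn1 all had both ligands, together 56 Ccl22 and 50 Ccl17 UMIs, or 851 CPM (643 to 1106) and 760 CPM (564 to 1002). Per cell they had 37 and 22, 9 and 12, 6 and 12, and 4 and 4 UMIs of Ccl22 and Ccl17. These cells also had Ccr7, the lymph-node homing receptor, at 137 CPM, Relb at 426 CPM and Traf1 at 654 CPM, and Zbtb46 in all 4 cells at 122 CPM, with no UMI of C1qb, Csf1r, Sirpa or Flt3. The 67 cells with at least 5 UMIs of C1qa, a macrophage complement gene, had Ccl17 in 11 cells (16.4%, 8.49 to 27.5) at 104 CPM (83.3 to 129), but Ccl22 in 1 cell at 3.73 CPM (0.77 to 10.9). Among those 11 cells the 2 highest had 41 and 20 Ccl17 UMIs.

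Of the 35 cells with at least 5 Cd79a UMIs only 2 had a ligand. These held 10 Ccl22 UMIs, a level of 18.6 CPM (8.91 to 34.2) over the 35. None had a Ccl17 UMI, and by the limit of 3 counts a share of up to 8.57% is allowed. The 35 cells had 262 CPM of Ms4a1 and no Igll1 UMI, and 3 of them had Siglech, a plasmacytoid dendritic gene. The remaining 64 cells had no Ccl22 and 4 Ccl17 UMIs. They were mixed: Xcr1 and Clec9a, genes of cross-presenting dendritic cells, were found in 12 and 11 of them, Siglech in 6, S100a8, a neutrophil gene, in 9 and Cd3e in 19. The groups were cut at these UMI counts after the values were seen, so they describe ranges of cells and not types.

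The Myeloid label of the stromal library had almost no ligand. Its 505 cells had 5 Ccl22 UMIs (0.83 CPM) and led the neutrophil genes, with S100a8 at 49371 CPM and S100a9 at 71122 CPM. C1qa and Clec9a were at 0 there, while the macrophage genes Cd68 and Csf1r had 47.7 and 17.1 CPM, Itgax had 36 UMIs and Xcr1 had 22. No myeloid level was compared between the libraries.

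Ccr4 in the thymocyte library was near 0 up to the DP label and highest in DP-sig, AgoSel1 and Immature CD4-1. The 415 UMIs lay in 322 of 8546 cells. The double-negative label DN had 0.46 CPM (0.15 to 1.08), DP-P 0.53 CPM (0.24 to 0.999) and DP, the 5202 double-positive thymocytes, 1.74 CPM (1.201 to 2.45). Pre DP-sig had 14.2 CPM (8.25 to 22.7) and DP-sig 63.6 CPM (50.6 to 79.0), with a Ccr4 UMI in 60 of 295 cells. DP-sig was 36.5 times (24.4 to 54.6) the DP level and 4.49 times (2.67 to 7.58) the Pre DP-sig level. Pre DP-sig was itself 8.12 times (4.52 to 14.6) the DP level.

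The 3 highest labels did not differ beyond counting error. Immature CD4-1 had 71.7 CPM (54.0 to 93.3) with a UMI in 39 of 133 cells (29.3%), AgoSel1 had 67.8 CPM (45.8 to 96.8) in 22 of 70 cells, and DP-sig followed. Immature CD4-1 over DP-sig was 1.13 (0.80 to 1.58). Going down the order from Immature CD4-1, the next labels were Immature CD4-2 at 45.4 CPM, intCD4 at 41.7, Pre-Treg at 33.6, Immature CD8-1 at 31.5, Mature CD8-2 at 21.7, Mature CD4-1 at 20.7, Immature CD8-2 at 18.5, Mature CD4-2 at 17.5 and Treg at 15.8. Below these came Pre DP-sig at 14.2, AgoSel2 at 11.5, Mature cycling T at 5.91 and Mature CD8-1 at 4.22 CPM. Among neighbours in the order with at least 3 UMIs each, only DP and DP-P had a ratio whose interval left out 1, at 3.32 (1.59 to 6.93). The gamma-delta label gdT had 1 Ccr4 UMI, and B+myeloid had 0 of 170 cells at a median depth of 11506.5, which by the same limit of 3 counts allows up to 1.76% of cells with a UMI.

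**Figure D4:**
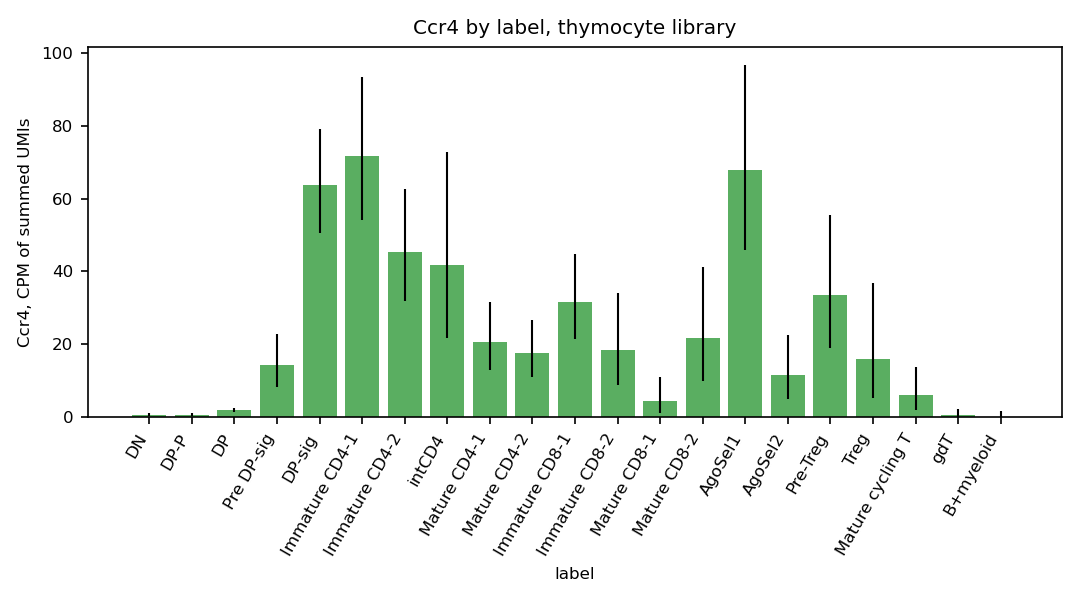
Ccr4 level (CPM of summed UMIs) in the 21 thymocyte-library labels of at least 20 cells; bars are levels and lines 95% Poisson intervals. Levels are under 2 CPM up to DP, reach 63.6 CPM in DP-sig and 71.7 CPM in Immature CD4-1, and are 4.22 CPM in Mature CD8-1.

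In the 4 mature CD4 and CD8 labels Ccr4 was lower than in the first immature label of the lineage, in 3 of them beyond counting error. The exception was Mature CD8-2, where Immature CD8-1 was 1.45 times (0.69 to 3.04) its level. Immature CD4-1 was 3.47 times (2.10 to 5.73) Mature CD4-1 and 4.09 times (2.49 to 6.70) Mature CD4-2, and Immature CD8-1 was 7.47 times (2.64 to 21.2) Mature CD8-1, which had 4 UMIs. At the immature stage the CD4 label was above the CD8 label, 2.27 times (1.46 to 3.53) for Immature CD4-1 over Immature CD8-1 and 2.45 times (1.22 to 4.94) for Immature CD4-2 over Immature CD8-2. Mature CD4-1 was 4.90 times (1.68 to 14.3) Mature CD8-1, but Mature CD8-2, with 9 UMIs in 27 cells, stood at 21.7 CPM beside the mature CD4 labels. These pairs share labels, and cells of 1 library are not replicates.

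The regulatory labels were not at the top. Treg, which led Foxp3, had 5 Ccr4 UMIs in 37 cells, 15.8 CPM (5.12 to 36.8), and Pre-Treg had 15 UMIs in 55 cells, 33.6 CPM (18.8 to 55.4); their ratio of 2.13 had an interval from 0.77 to 5.85. Treg did not differ beyond counting error from Mature CD4-1, the ratio of the latter to the former being 1.31 (0.49 to 3.47). Of the AgoSel labels, AgoSel1 was 5.91 times (2.71 to 12.9) AgoSel2, which had 11.5 CPM. Nr4a1, an immediate target of antigen-receptor signalling, was 1117 CPM in AgoSel1 and 331 CPM in AgoSel2.

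Thinned to 1000 UMIs per cell, a Ccr4 UMI was found in 0.08% of DP and 1.23% of Pre DP-sig cells. The share was 5.08% in DP-sig, 4.51% in Immature CD4-1 and 10.0% in AgoSel1. In a separate random draw AgoSel1 had only 3 Ccr4 UMIs in 70 cells, so the order of these 3 labels carries no comparison. DN and DP-P cells, where Ccr4 was low, were deep, with medians of 23190 and 15439 UMIs against 4010 in DP-sig.

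The few Ccr4-positive cells in the DP label had higher levels of genes induced at positive selection. The 28 DP-labelled cells with a Ccr4 UMI had Itm2a, a membrane protein induced at positive selection, at 211 CPM against 10.5 in the other 5174, a ratio of 20.03 (14.4 to 28.0). Cd69, the early activation marker, was 110 against 4.43 CPM (24.9 times, 15.6 to 39.8). Tox, a factor needed for the CD4 lineage, was 1827 against 198 CPM and Nr4a1 136 against 22.9 CPM. Cd5 and Gata3 were only 1.58 (1.11 to 2.24) and 2.38 times (1.84 to 3.09) higher. Among the 28 cells, 1 cell held 11 of 22 Cd69 UMIs, and 1 held 11 of 27 Nr4a1 UMIs. For Itm2a the highest cell held 10 of 42 UMIs and for Tox 69 of 364. Rag1, a recombinase gene that selected cells switch off, was lower, 969 against 1962 CPM. The Ccr4-positive cells were deeper, with a median of 7620 against 3201 UMIs. At 1000 UMIs per cell Itm2a was found in 17.9% (6.06 to 36.9) of the 28 and 0.92% (0.67 to 1.22) of 5136 cells, and Cd69 in 10.7% (2.27 to 28.2) and 0.27% (0.15 to 0.46).

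The authors' first clusters also divided the DP label. The 78 DP-labelled cells of the cluster Early SP held 19 of the label's 33 Ccr4 UMIs, 34.9 CPM (21.0 to 54.5). The 2916 cells of cluster DP1 had 1.02 CPM (0.53 to 1.79) and the 2186 of DP2 had 0.31 CPM (0.04 to 1.12).

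Other migration receptors ran on different schedules. Ccr9, which encodes the receptor for the cortical chemokine CCL25, was already 499 CPM in DP, 741 in Pre DP-sig and 577 in DP-sig, and was 29.5 CPM in Mature CD4-1. Ccr7, whose product leads cells to the medulla, was only 2.33 CPM (0.48 to 6.80) in DP-sig, then 18.2 CPM in Immature CD4-1, 59.1 in Mature CD4-1 and 76.1 in Pre-Treg. S1pr1, the exit receptor, was 3.10 CPM in DP-sig, 2.61 in Immature CD4-1 and 219 in Mature CD4-1. Ccr8 was 13.2 CPM in DP-sig, 76.9 in Immature CD4-1, 5.91 in Mature CD4-1 and 97.8 in Treg. These are levels of each gene along the labels, and no level is compared between genes.

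**Figure D5:**
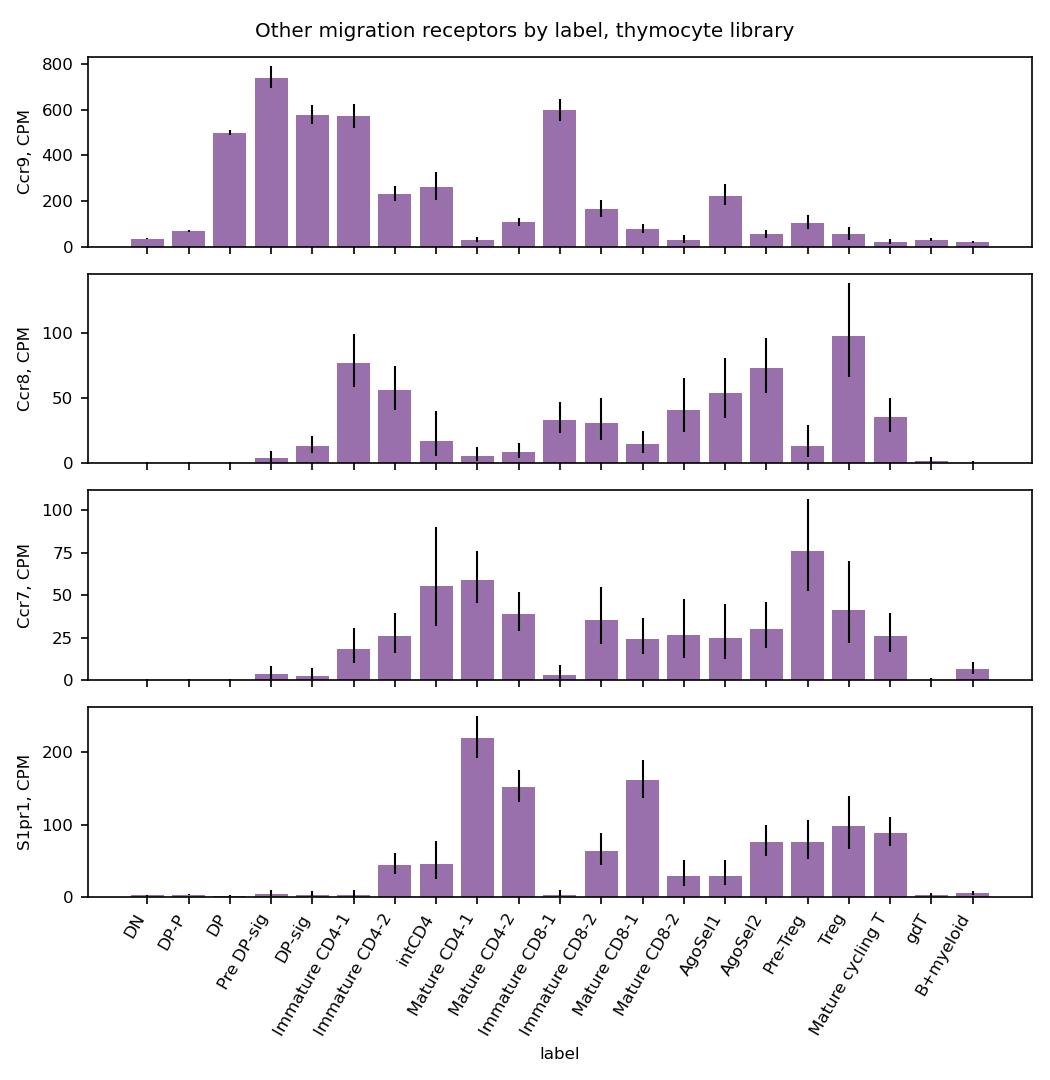
Levels (CPM of summed UMIs, each gene on its own axis) of Ccr9, Ccr8, Ccr7 and S1pr1 in the same 21 labels; bars are levels and lines 95% Poisson intervals. Ccr7 and S1pr1 are near 0 in DP-sig and high in Mature CD4-1, while Ccr9 is high from DP to Immature CD4-1 and Immature CD8-1.

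The 13 genes of receptor signalling included Gnai2, a G-protein subunit, and Dock2, a regulator of T-cell migration. In the thymocyte library 0 of them passed 3-fold, beside 11.9% of all genes tested, and so few genes carry no comparison. Their median ratio of highest to next label was 1.12, beside 1.16 over all genes tested. The 5 genes whose levels ran most like Ccr4 over 21 labels were Gpr174 (Pearson r 0.93), Il2rg (0.93), Rap1a (0.92), Chd3 (0.92) and Cd28 (0.92), among 10793 genes. Itm2a came sixth at 0.91, Tox was among the next at 0.90, Ccr8 had 0.77 and Ccr7 0.61. The labels come from 1 library and share cells' depth and stage, so r is a description.

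Thymocytes in the stromal library also had Ccr4. The Thymocyte label held 26 of 30 Ccr4 UMIs there, 15.2 CPM (9.90 to 22.2), in 18 of 411 cells, and no other label had more than 2. Thymocyte was the highest label by 3-fold for 1.38% of genes tested, and its ratio to Myeloid, whose 2 UMIs were taken as 3, was 30.5 (9.23 to 101). The 18 cells had Tox at 1347 against 525 CPM in the other 393, Itm2a at 542 against 256 and Rag1 at 70.0 against 1023, at median depths of 3947.5 and 2625. Neither mTEC2 nor the B cell label had a Ccr4 UMI.

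Genes that remove the ligands were highest away from the mTEC2 cells. Ackr2, a scavenging receptor that takes up CCL17 and CCL22, was 87.1 CPM (82.6 to 91.8) in capFb, 3.66 times the next label, and 4.57 CPM in mTEC2. Ackr1, a chemokine-binding receptor of venules, was 421 CPM in vEC, 8.53 times the next. Dpp4, the protease that clips CCL22, was 820 CPM in capFb, 1.16 times the next label, and 86.8 CPM in mTEC2.

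A list of 19 genes held known inducers of the ligands, their receptors and signalling genes such as Traf1. Of the 15 that reached 20 UMIs, 6 had mTEC2 as highest label, beside 7.61% of all genes tested. The 6 were Tslp, an epithelial cytokine that induces both ligands in dendritic cells, at 117 CPM, Cd40 at 189, Tnfrsf11a at 276, Stat5a at 52.6, Nfkb2 at 125 and Traf1 at 163. Tnfrsf11a was also on the fixed list of mTEC2 markers. Within mTEC2, the 14 cells with at least 5 Ccl22 UMIs had more Cd40 and Traf1 than the other 47. Those 14 had less Tnfrsf11a and less Nfkb2, the latter at 67.3 against 139 CPM. Tslp was 101 against 121 CPM, a ratio whose interval held 1. Only Traf1, at 3.64 times the next label, and Irf4, at 6.11 times in the B cell label, passed 3-fold, and the list's median ratio was 1.27 beside 1.21 over all genes. Il4 and Il13 did not reach 20 UMIs in a highest label.

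Of 16 other chemokine ligands, 13 reached 20 UMIs in their highest stromal label and 4 passed 3-fold, beside 9.44% of all genes tested. The list's median ratio was 1.77 beside 1.21 over all genes. In mTEC2 those past 3-fold were Ccl20 at 167 CPM and Xcl1 at 24.0 CPM, the latter from 21 UMIs. The others were Ccl25 at 535 CPM in cTEC and Ccl4 at 317 CPM in the Thymocyte label. Of the 146 Ccl20 UMIs in mTEC2, 1 cell held 75 and another 59. Cx3cl1, which lies between the ligand genes, had its highest level in TMC3 at 89.8 CPM, 1.38 times the next label, and its pattern over 24 labels had r 0.017 with Ccl22 and -0.063 with Ccl17. The genes most like Ccl22 were Nppa (0.90), Oas1h (0.87), Gzmb (0.85), Chia (0.85) and Cyp2c23 (0.84). Those most like Ccl17 were Mcpt2 (0.84), Gucy2c (0.83), Ccl22 (0.83), Dlgap2 (0.81) and Nppa (0.81). All of these had mTEC2 as their highest label, and several, such as Nppa, a cardiac hormone, are better known from other tissues.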

How the data were processed

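Per the submitters' processing notes, the study used Cell Ranger 8.0.0, Seurat 5.3.0 and the rat build mRatBN7.2. The deposited matrices hold whole UMI counts per gene and barcode; in every annotated cell they summed to the total count that the authors deposited beside it. Each cell kept the authors' projected label or, lacking one, their first cluster; doublets were not called again. Stromal cells had 131624350 UMIs and thymocyte-library cells 64440495. UMIs were summed per label of at least 20 cells with Python 3.11.15, NumPy 2.4.6, SciPy 1.17.1 and pandas 2.3.3, and drawn with matplotlib 3.10.9. Levels have exact Poisson, shares Clopper-Pearson and ratios log-normal 95% intervals, for counting error only. A next label under 3 UMIs was set to 3. A gene counted as tested with at least 20 UMIs in its highest label. Likeness is Pearson r of log2(CPM + 1) over labels, among genes of at least 100 UMIs; the 5 highest were named, and other genes come from fixed lists. On simulated stromal counts with 8-fold changes the rule recovered 119 of 137 raised genes with at least 20 UMIs and called 0 of 6661 unchanged ones, over 34034 genes. The simulated counts had counting error only and no UMIs gathered in single cells. They therefore do not show how often the rule errs on these data. The members and lists were chosen with earlier results of these data known. Groups cut at 5 UMIs were set after values were seen. The section's tables were not used here. The summary of the list of other chemokine receptors is not reported here.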

Additional observations from a re-analysis of the deposited data

Results flagged for a closer look

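Barcodes without an annotation carried Ccl22. The 2934 such barcodes of the stromal library, which enter no comparison above, held 447 Ccl22 UMIs, 51.6 CPM (46.9 to 56.6), beside 7.42 CPM in annotated cells. A UMI was found in 70 of them (2.39%, 1.86 to 3.005). The 9 with at least 5 UMIs held 373 (83.4%), with up to 141 in 1 barcode. Their 74413 UMIs in all, 56442 of them in 1 barcode, included Cd74 at 14823 CPM and RT1-Da at 5899.5 CPM, with no Ptprc, C1qa, Cd79a or Cd3e UMI. Epcam was found in 5 of the 9 and Aire in 1, which had 29 UMIs. Mitochondrial genes took a median of 26.3% of UMIs in these 9, 74.0% in all barcodes without an annotation and 6.90% in mTEC2 cells; their part in the missing annotation was not tested.

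The same barcodes held 31 Ccl17 UMIs in 26 of them, 3.58 CPM (2.43 to 5.08), with at most 2 in a barcode, beside 3.01 CPM in annotated cells. They held 1 Ccr4 UMI. The 28 barcodes without an annotation in the thymocyte library had no UMI of the 3 genes.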

How the results depend on the processing

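The ratio of the highest to the next label was recomputed for the 3 genes in both libraries under 8 other settings and some added after seeing the data, namely those that removed the highest cell of both labels, cells high for both ligands or cells without Epcam. It stayed within its counting interval in 37 cases, moved outside it in 18 and fell below 1 in 2; the level in the highest label stayed within its interval in 29 cases and moved in 19. Both labels were kept as in the values reported above, so a denominator can be a label that is no longer the next one; where another label was next for a value given here, its ratio, computed after seeing the data, follows. With each cell thinned to 1000 UMIs it was 129 for Ccl22 and 2.60 for Ccr4 in the stromal library, and 2.40 for Ccl22 and 2.11 for Ccr4 in the thymocyte library; against the label then next, stromal Ccl22 was 25.3 (mTEC-prol), and Ccl22 was 3.64 and Ccr4 1.06 (both DP-sig) in the thymocyte library. This was a random draw apart from that behind the shares above, and the few UMIs left vary between draws. With the mean of the cells' CPM it was 115 for stromal Ccl22, 33.3 for stromal Ccl17, 103 for Ccl17 and 0.816 for Ccr4 in the thymocyte library; against the label then next, stromal Ccl22 was 29.8 (tuft-like) and stromal Ccl17 26.1 (B cell). With first clusters alone, where TEC-d and TEC-a replace mTEC2, it was 1.70 for stromal Ccl22 and 5.32 for stromal Ccl17. In the thymocyte library it was 41.7 for Ccl22 and 2.26 for Ccr4. Of the TEC-a UMIs, 1 cell held 69 of 92 for Ccl22 and 155 of 157 for Ccl17. Without possible doublets the ratio was 9.03 for stromal Ccr4 and 0.969 for Ccr4 in the thymocyte library. Against TMC3, then next, stromal Ccr4 was 52.9. Without the highest mTEC2 cell it was 2.95 for stromal Ccl17. Without the highest cell of both labels it was 335 for stromal Ccl22 and 32.3 for stromal Ccl17, against 41.4 (tuft-like) and 5.23 (B cell) by the label then next. Without cells high for both ligands it was 349.9 for stromal Ccl22 and 2.37 for Ccl22 in the thymocyte library; against the label then next, stromal Ccl22 was 43.2 (tuft-like) and stromal Ccl17 2.58 (B cell). With mTEC2 cells that had an Epcam UMI it was 1.59 for stromal Ccl17. Apart from the settings that remove cells, the cause was not tested. No paired analysis was possible because there was 1 library of each kind. Depth limits every label with under 10 UMIs of a gene.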
